A study of Homo sapiens with 12 samples.

Results

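The 10 genes described here are BCL2A1 and 9 of its relatives in the BCL2 family of survival and death genes (BCL2, BCL2L1, MCL1, BAX, BAK1, BCL2L11, BBC3, PMAIP1 and BID), found by symbol among the 23106 symbols of each count table. BCL2A1 was chosen by its measured counts across the 4 conditions, so its values are given as a description without a test, and the other 9 genes were taken by name as members of the same family. RNA was sequenced from RCC4, a human clear cell renal carcinoma (ccRCC) line that lacks functional VHL, the protein that marks the hypoxia-inducible factors HIF-1alpha and HIF-2alpha for destruction. Cells were harvested 48 h after transfection with pools of siRNA at 2 nM in total. The study compared each single knockdown with control siRNA to separate genes that depend on each factor. It did not analyse the double knockdown. The control group received 2 nM of non-targeting siRNA, the HIF1A siRNA group 1 nM of siRNA against HIF1A with 1 nM of control siRNA, and the HIF2A siRNA group 1 nM of siRNA against EPAS1, the gene of HIF-2alpha, with 1 nM of control siRNA. The double knockdown received 1 nM of each HIF siRNA and 0 nM of control siRNA, so that knocking down both factors and omitting the control siRNA cannot be told apart in it. Each condition had 3 replicates, giving 12 libraries, all from the same line. The study's methods state no oxygen level for its culture. Replicates share a number across conditions, and that number is used as a pairing throughout.

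BCL2 family proteins decide whether the outer membrane of the mitochondrion is opened during apoptosis. BCL2, BCL2L1 (which encodes BCL-XL), MCL1 and BCL2A1 (which encodes BFL-1, also called A1) hold the membrane closed, whereas BAX and BAK1 form the pores through which cytochrome c escapes. The BH3-only proteins BCL2L11 (BIM), BBC3 (PUMA), PMAIP1 (NOXA) and BID carry stress and death receptor signals to both sides. BCL2A1 is known mainly from blood and inflamed cells as a short-lived, inducible member under the control of NF-kappaB, and BBC3, PMAIP1 and BAX are known targets of p53.

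BCL2A1 lies on the minus strand of chromosome 15 at 79960892-79971196 in GRCh38, with 2 exons in its canonical transcript of 780 bases (GENCODE v44), and shares no exonic base with another annotated gene. The count tables were made on hg19 and hold no coordinates, so positions and sequences here come from a different build and serve only to place the genes. The 250 bases before the RefSeq start of BCL2A1 (chr15:79971197-79971446, minus strand, GRCh38.p14) are shown because this gene carries the main pattern. The BAX sequence is shown beside them because, of the 9 members with a window in the RefSeq table, BAX held the most matches to the core motif bound by HIF (ACGTG or GCGTG, on either strand, with overlapping matches merged). Only the 190 bases of its window outside the annotated gene are given (chr19:48954625-48954814, plus strand). Capitals mark the HIF core, of which the BCL2A1 window held 0 matches and the BAX window 5, with 2 of these in the printed stretch.
BCL2A1: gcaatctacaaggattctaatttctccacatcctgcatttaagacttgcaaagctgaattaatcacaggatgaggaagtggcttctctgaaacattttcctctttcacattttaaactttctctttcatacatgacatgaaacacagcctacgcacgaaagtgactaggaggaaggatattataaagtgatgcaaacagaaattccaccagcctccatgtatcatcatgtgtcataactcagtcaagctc
BAX: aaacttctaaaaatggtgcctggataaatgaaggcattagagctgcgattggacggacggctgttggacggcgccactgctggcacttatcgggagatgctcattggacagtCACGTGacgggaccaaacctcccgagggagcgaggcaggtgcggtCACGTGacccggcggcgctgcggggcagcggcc
At least 1 such match was present in 43.2% of the 35114 windows of 250 bases in the table, so that a match is common. The BCL2A1 window also held 0 matches to the NF-kappaB consensus, found in 5.21% of windows, and 0 to the AP-1 motif TGANTCA, found in 6.57%. Only these 250 bases were searched, so the counts of 0 do not cover sites further upstream or elsewhere. The GC content of the BCL2A1 window was 38.8%, against 62.8% for the whole BAX window. MCL1 had no window in the table.

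Total counts per library ranged from 13263168 to 20451433, and the 10 most abundant genes took 4.98 to 6.39% of a library. The siRNAs lowered their targets. HIF1A fell from 58.2-120 CPM (counts per 1000000 counts of the library) with control siRNA to 14.99-22.2 CPM with HIF1A siRNA (edgeR quasi-likelihood test, adjusted p = 4.26e-05) and 24.2-32.2 CPM in the double knockdown (adjusted p = 8.1e-05). EPAS1 fell from 138-171 CPM to 9.16-11.9 CPM with HIF2A siRNA (adjusted p = 1.43e-07) and 7.01-11.3 CPM in the double knockdown (adjusted p = 3.78e-09). With HIF1A siRNA alone EPAS1 measured 101-134 CPM, below every control library, but did not pass the test (adjusted p = 0.28). All 10 kidney and ccRCC markers were detected in every condition. Because BCL2A1 is best known from leukocytes, leukocyte markers were examined as well. PTPRC, CD3E, MS4A1 and CD53 had 0 counts in all 12 libraries, and the leukocyte markers summed to 1.35-2.16 CPM with control siRNA, 1.46-3.02 with HIF1A siRNA, 1.27-2.44 with HIF2A siRNA and 0.925-2.26 in the double knockdown. Endothelial markers summed to at most 0.432 CPM in any library, and fibroblast and pericyte markers to 28.1-95.5 CPM. In bulk RNA, fewer cells that express a gene and less RNA per cell cannot be told apart.

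BCL2A1 was a low but detected transcript, and it was lowest in the double knockdown. With control siRNA the 3 replicates measured 3.003, 2.31 and 3.78 CPM, from 49, 46 and 61 counts. With HIF1A siRNA they measured 4.13, 3.52 and 2.63 CPM, from 78, 49 and 54 counts. With HIF2A siRNA they measured 1.71, 1.84 and 2.76 CPM, from 32, 29 and 52 counts. The HIF1A siRNA and control values overlapped, and the HIF2A siRNA values overlapped the control values through replicate 3. In the double knockdown the replicates measured 1.06, 0.451 and 0.633 CPM, from 21, 6 and 13 counts. Every double knockdown library lay below every other library, including those with a single HIF siRNA. Mean levels were 3.03 CPM ± 0.737 (SD, n = 3) with control siRNA, 3.43 ± 0.757 with HIF1A siRNA, 2.10 ± 0.567 with HIF2A siRNA and 0.715 ± 0.313 in the double knockdown. Counting error is large at these depths, most of all for the 6 counts of double knockdown replicate 2.

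**Figure D1:**
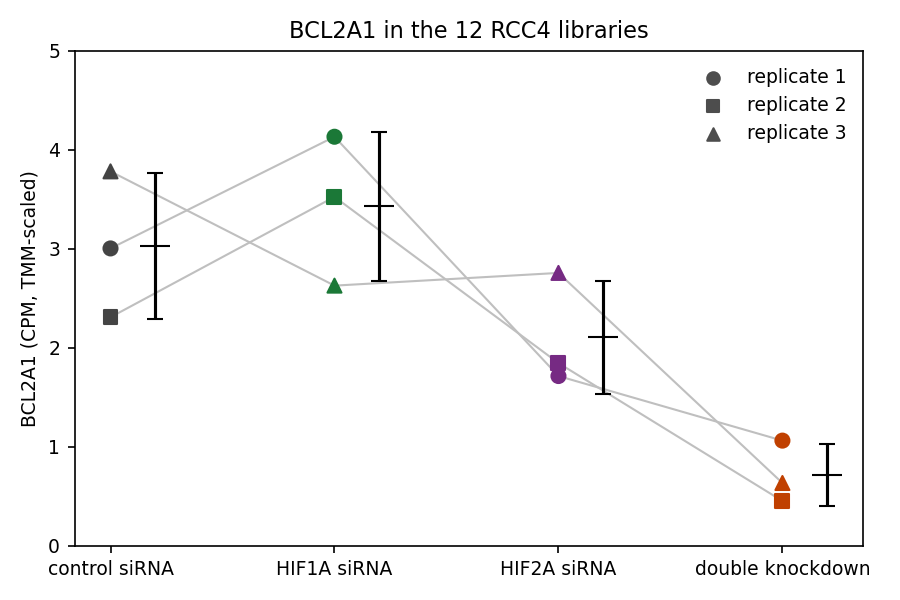
BCL2A1 level (CPM on TMM-scaled library totals, y axis) in the 12 libraries by condition (x axis); symbols give the replicate number, grey lines join libraries of the same number, and black bars give the mean and SD of 3 replicates. The double knockdown libraries sit between 0.451 and 1.06 CPM, below the other 9 libraries, which sit between 1.71 and 4.13 CPM.

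Within pairs, the double knockdown held 35.3, 19.6 and 16.7% of the control level of BCL2A1 in replicates 1, 2 and 3. The ratio of mean levels was 4.24-fold lower, and the fitted log2 fold change was -2.06 (SE 0.42, 95% interval -2.96 to -1.16). That interval is a description, since BCL2A1 was chosen by these counts. Of the 13000 genes fitted, 94 had a lower log2 fold change in this comparison, a rank that is likewise only a description. Against HIF1A siRNA the double knockdown held 25.7, 12.8 and 24.1% of BCL2A1 (log2 fold change -2.26, SE 0.42), and against HIF2A siRNA 61.9, 24.5 and 23.0% (-1.55, SE 0.43). The gap to HIF2A siRNA was thus smallest in replicate 1.

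The single siRNAs moved BCL2A1 much less. With HIF2A siRNA its level was 57.1, 79.9 and 72.9% of control, lower in 3 of 3 pairs, and the fitted log2 fold change was -0.51 (SE 0.37, 95% interval -1.31 to 0.29). With HIF1A siRNA it was 138, 153 and 69.5% of control, higher in 2 pairs and lower in the third (log2 fold change 0.20, SE 0.36, 95% interval -0.58 to 0.99). The direction with HIF1A siRNA changed in 1 of 18 alternative fits (log2 fold change -0.02 without the HIF1A siRNA library of replicate 1). HIF1A siRNA and HIF2A siRNA differed by 0.71 (SE 0.37, 95% interval -0.09 to 1.52) in BCL2A1. All of these comparisons share libraries, so they are not independent of each other.

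The double knockdown was lower in BCL2A1 than the product of the single ratios. Multiplying the HIF1A and HIF2A siRNA ratios within each pair would give 2.36, 2.82 and 1.91 CPM, whereas 1.06, 0.451 and 0.633 CPM were measured. The measured level was therefore 45.02, 16.02 and 33.1% of the product, and the fitted interaction was -1.74 (SE 0.56, 95% interval -2.95 to -0.54) on the log2 scale. This interval takes no account of the choice of BCL2A1 by the same counts and is not a test. The single-siRNA cells also carried 1 nM of control siRNA that the double knockdown lacked, and the part of this in the gap was not tested. Across all 13000 genes the interaction had 0 calls with edgeR (0%), with 318 genes at an unadjusted p under 0.05, and DESeq2 called 11.

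None of the 9 members other than BCL2A1 passed the test in any of the 7 comparisons. Among the survival members, BCL2 was the one with the largest differences. It measured 29.4, 24.2 and 23.5 CPM with control siRNA and 33.1, 34.3 and 32.6 CPM with HIF1A siRNA, so every HIF1A siRNA library lay above every control library. With HIF2A siRNA it measured 24.7, 46.6 and 27.5 CPM, with replicate 2 far above the others. In the double knockdown it measured 39.9, 30.5 and 32.0 CPM, again without overlap with control. The log2 fold changes against control were 0.38 (SE 0.20, adjusted p = 0.78) with HIF1A siRNA, 0.33 (SE 0.20, adjusted p = 0.94) with HIF2A siRNA and 0.42 (SE 0.19, adjusted p = 0.192) in the double knockdown, by edgeR with adjustment over all genes. In the double knockdown BCL2 was higher in 3 of 3 pairs, at 136, 126 and 136% of control. The outcome depended in part on libraries of other conditions. BCL2 passed in the double knockdown in 2 of 21 alternative fits. These were edgeR without HIF2A siRNA replicate 2 (adjusted p = 0.0338) and with only the 6 libraries compared (0.0221). In the other fits adjusted p reached 0.587.

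BCL2L1 was the survival member with most counts and varied little. It measured 433, 407 and 454 CPM with control siRNA, 483, 388 and 414 with HIF1A siRNA, 473, 406 and 421 after HIF2A siRNA, and 436, 356 and 424 in the double knockdown. All 4 conditions overlapped. The double knockdown to control ratio had a 95% interval of 0.815 to 1.08 (log2 fold change -0.09, adjusted p = 0.578). MCL1, whose short-lived protein also binds BAK1, measured 305, 238 and 339 CPM with control siRNA, 268, 234 and 288 with HIF1A siRNA, 279, 274 and 311 after HIF2A siRNA, and 275, 234 and 291 in the double knockdown. Its conditions overlapped too, with replicate 2 lowest in all of them. Its double knockdown to control ratio had a 95% interval of 0.790 to 1.05 (log2 fold change -0.13, adjusted p = 0.423). BCL2L1 and MCL1 share exonic bases with ABALON and ADAMTSL4, respectively, on the other strand, and MCL1 also with ADAMTSL4-AS1 on its own strand, which counting by strand would not separate. Whether the counting used strand is not given in the sources used here.

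Of the pore formers, BAK1 read higher in the double knockdown than in control in 3 of 3 pairs without passing the test, and BAX stayed within the control range. BAK1 measured 38.7, 38.7 and 44.8 CPM with control siRNA, 47.7, 42.6 and 56.6 with HIF1A siRNA, 43.9, 34.8 and 49.5 after HIF2A siRNA, and 54.0, 44.8 and 54.3 in the double knockdown. The lowest double knockdown library, replicate 2, lay only just above the highest control library, replicate 3. BAK1 was 139, 116 and 121% of control in the 3 pairs, with a log2 fold change of 0.32 (SE 0.11, adjusted p = 0.0813). BAK1 passed there in 3 of 21 alternative fits. These were DESeq2 (adjusted p = 0.0494), edgeR without HIF2A siRNA replicate 2 (0.0372) and edgeR with only the 6 libraries compared (0.0457). In the other fits adjusted p reached 0.567. Against HIF2A siRNA the double knockdown differed by 0.26 in BAK1 (SE 0.11, adjusted p = 0.227), and with HIF1A siRNA against control the log2 fold change was 0.26 (SE 0.12, adjusted p = 0.696). BAK1 shares exonic bases with GGNBP1 on the other strand. BAX measured 130, 160 and 138 CPM with control siRNA, 177, 128 and 121 with HIF1A siRNA, 174, 154 and 133 after HIF2A siRNA, and 150, 152 and 143 in the double knockdown. The 95% interval of its double knockdown to control ratio was 0.856 to 1.26 (adjusted p = 0.835).

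Replicates of the BH3-only genes often lay far apart, and none of these genes passed the test in any comparison. BCL2L11 measured 8.89, 4.97 and 10.5 CPM with control siRNA, 5.83, 5.54 and 14.4 with HIF1A siRNA, 6.43, 8.02 and 15.6 after HIF2A siRNA, and 5.26, 4.21 and 13.9 in the double knockdown. Replicate 3 was the highest in every condition, and the ratio of double knockdown to control had a 95% interval of 0.603 to 1.26 (adjusted p = 0.665). BBC3 measured 14.8, 25.4 and 23.2 CPM with control siRNA, 30.1, 23.3 and 22.8 with HIF1A siRNA, 30.0, 19.3 and 18.2 after HIF2A siRNA, and 21.1, 20.8 and 20.9 in the double knockdown. Replicate 1 of BBC3 was low with control siRNA and high with each single siRNA, and the double knockdown ratio had a 95% interval of 0.713 to 1.35 (adjusted p = 0.954). Relative to HIF1A siRNA the double knockdown held 70.1, 89.4 and 91.5% of BBC3 in replicates 1, 2 and 3 (edgeR, adjusted p = 0.689). BCL2L11 and BBC3 also share exonic bases with other transcripts, MIR4435-2HG for the former and MIR3190 and MIR3191 for the latter.

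PMAIP1 measured 66.7, 60.0 and 65.5 CPM with control siRNA, 78.9, 44.5 and 52.2 with HIF1A siRNA, 94.5, 58.5 and 63.8 after HIF2A siRNA, and 75.7, 65.7 and 56.7 in the double knockdown. HIF1A siRNA against HIF2A siRNA gave a log2 difference of -0.32, lower in 3 of 3 pairs (SE 0.14, adjusted p = 0.475), and its double knockdown to control ratio had a 95% interval of 0.832 to 1.25 (adjusted p = 0.918). BID, which links death receptors to the mitochondrion, measured 71.2, 102 and 86.9 CPM with control siRNA, 99.5, 86.8 and 77.8 with HIF1A siRNA, 114, 77.9 and 84.6 after HIF2A siRNA, and 82.8, 92.9 and 84.4 in the double knockdown. All conditions of both genes overlapped. The double knockdown to control ratio of BID had a 95% interval of 0.792 to 1.26 (adjusted p = 0.995).

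**Figure D2:**
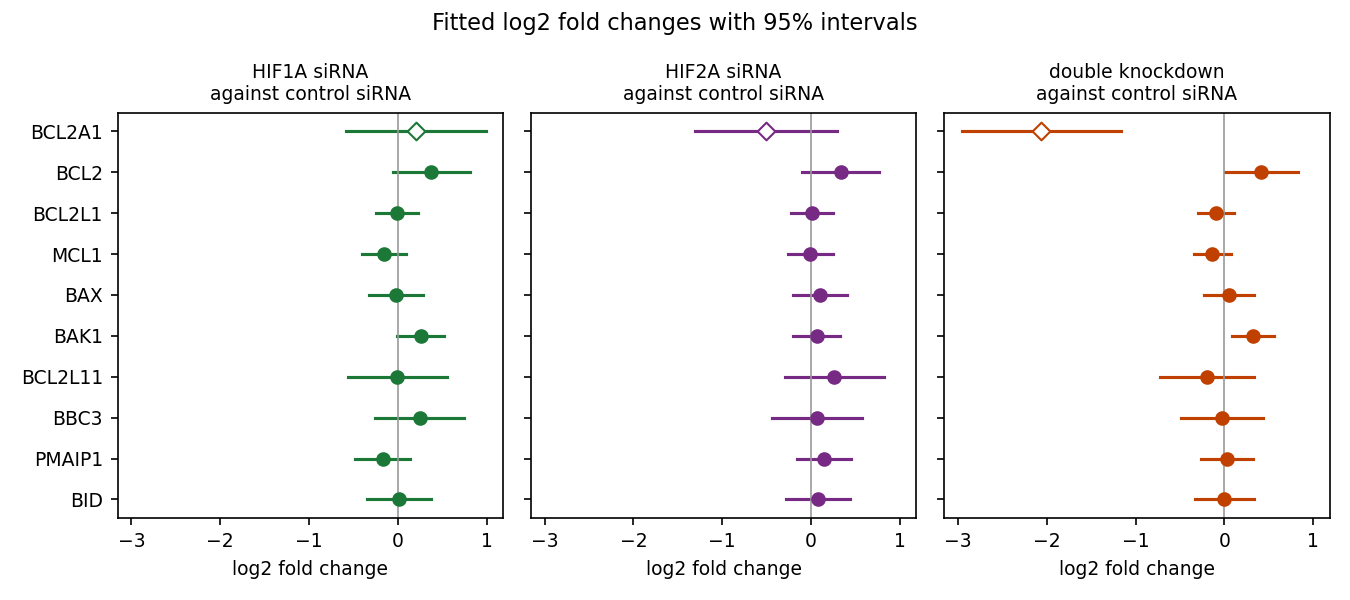
Fitted log2 fold change against control siRNA (x axis) of the 10 genes (y axis) with 95% intervals from edgeR, for HIF1A siRNA, HIF2A siRNA and the double knockdown. The BCL2A1 point (open diamond, not tested) lies at -2.06 in the double knockdown, while the other 9 genes (filled circles) lie between -0.20 and 0.42 there. The BCL2A1 intervals take no account of its choice by these counts.

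Counted against the whole transcriptome, 0 of the 9 members other than BCL2A1 were called with HIF1A siRNA against control, where 1.17% of genes were called, 0 of 9 with HIF2A siRNA (0.0857%) and 0 of 9 for HIF1A siRNA against HIF2A siRNA (1.5%). In the double knockdown 0 of 9 were called against control, where 10.3% of 13000 genes were called, and 0 of 9 against HIF1A siRNA (1.4%) and against HIF2A siRNA (4%). A count of 0 of 9 is near the background in each comparison. The number of genes called in the double knockdown against control was 302 without replicate 3 and 2307 without HIF2A siRNA replicate 2, against 1336 with all libraries. The median absolute log2 fold change of the 9 members against control was 0.15 with HIF1A siRNA (0.14 over all genes), 0.08 with HIF2A siRNA (0.13) and 0.09 in the double knockdown (0.23). Without regard to the test, the values of 2 of the 9 members other than BCL2A1 (BCL2 and BAK1) did not overlap between the double knockdown and control, which held for 15.6% of genes. The same was seen for 1 of 9 (BCL2) with HIF1A siRNA, where 7.06% of genes did not overlap, and for 0 of 9 with HIF2A siRNA, where 5.27% did not.

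Levels were then compared between genes per kilobase of canonical transcript, in the control cells. BAX was first at a mean of 179 CPM per kilobase and BCL2L1 second at 167, with overlapping ranges. MCL1 followed at 74.5, then BID at 39.8 and PMAIP1 at 33.7, whose ranges overlapped, BAK1 at 18.8 and BBC3 at 11.5. BCL2A1 at 3.89 CPM per kilobase and BCL2 at 3.73 overlapped, and BCL2L11 was last at 1.59. BCL2A1 and BCL2 were thus both far below BCL2L1 and MCL1. Per kilobase, BCL2L1 held 65.2 to 70.3% and MCL1 26.8 to 31.8% of the summed level of the 4 survival genes with control siRNA, whereas BCL2A1 held 1.32 to 1.79%. The BCL2A1 share was 1.39 to 2.06% with HIF1A siRNA, 0.844 to 1.42% with HIF2A siRNA and 0.286 to 0.553% in the double knockdown, where BCL2A1 had the lowest mean of the 10 genes at 0.917 CPM per kilobase, with a range that overlapped that of BCL2L11. The 4 shares describe RNA and depend on the transcript lengths used, which were taken from GENCODE and not from the annotation behind the counts.

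**Figure D3:**
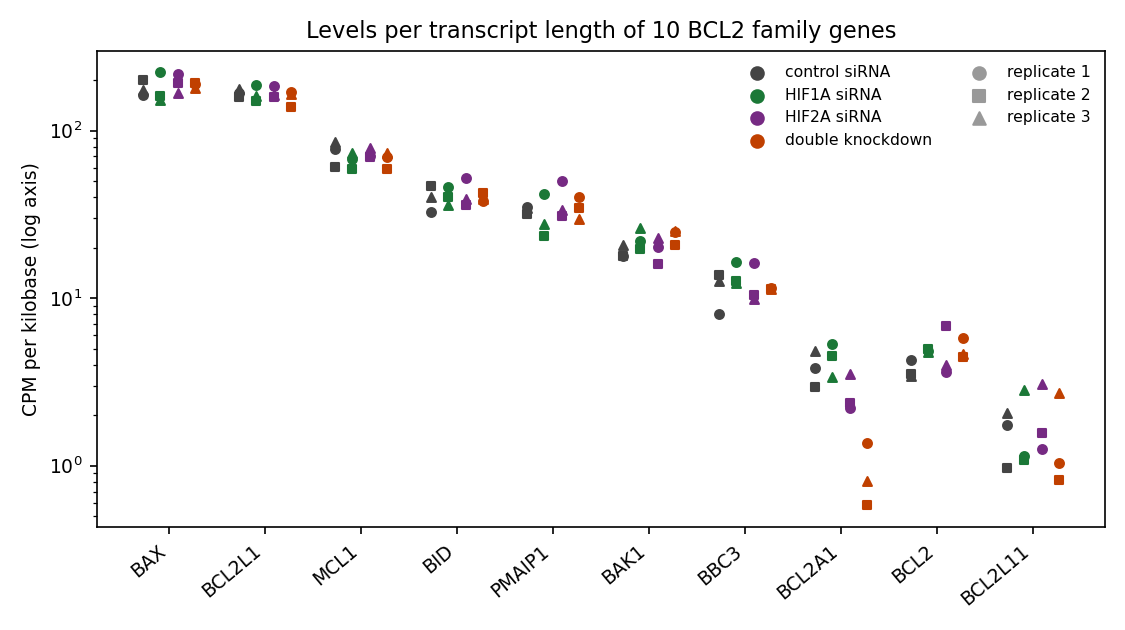
Level of the 10 genes in CPM per kilobase of canonical transcript (log y axis), ordered by their mean with control siRNA (x axis), with 1 point per library, colored by condition and shaped by replicate number. BAX and BCL2L1 lie above 100 CPM per kilobase in all libraries, while BCL2A1 moves from 2.96-4.85 with control siRNA to 0.579-1.36 in the double knockdown.

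Other genes of the apoptosis pathway were described by lists of known members. None of the genes tested in the 7 pathway lists passed with HIF1A siRNA or HIF2A siRNA against control. Over all genes 1.17% and 0.0857% were called there, so this is near the background. Among 11 other BCL2 family genes, 7 had enough counts to be tested, and 1 rose in the double knockdown. This was BMF, a BH3-only gene, at 3.55, 2.01 and 5.39 CPM with control siRNA and 9.10, 8.65 and 7.84 CPM in the double knockdown (log2 fold change 1.34, SE 0.39, adjusted p = 0.0423). The groups did not overlap, as for 15.6% of all genes. The BMF call was lost in 12 of 21 alternatives. Among them were the omission of any single control library (adjusted p = 0.0921 to 0.132) and of double knockdown replicate 1 or 2 (0.158 and 0.172). Omitting HIF1A siRNA replicate 1 or 3 or HIF2A siRNA replicate 3 also ended it (0.0516 to 0.0577). Of 16 genes of the apoptosome, caspases and their inhibitors, 2 fell and 1 rose. APAF1, the scaffold that activates caspase-9, fell from 22.1, 19.5 and 43.95 CPM to 11.02, 9.40 and 28.2 CPM (log2 fold change -0.88, adjusted p = 0.00224). It was lower in 3 of 3 pairs, with replicate 3 high in both conditions. Without replicate 3 its adjusted p was 0.05. BIRC3, an inhibitor of apoptosis that is also in the list of NF-kappaB targets, fell by 0.68 on the log2 scale (adjusted p = 0.00287), and its call was lost without replicate 1 (0.0758) or replicate 3 (0.106). BIRC5, which encodes survivin, rose by 0.32 (adjusted p = 0.0494) and lost the call in 14 of 21 alternatives, including the omission of any single control library (0.0769 to 0.199). The background of the double knockdown was 6.42% of genes lower and 3.86% higher.

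Of 9 tested mitochondrial partners of the family, 1 rose in the double knockdown. Against control 6.42% of all genes fell there and 3.86% rose, the background for each list compared with control below. PGAM5, a mitochondrial phosphatase, was higher by 0.42 on the log2 scale (adjusted p = 0.0309). Its call was lost without replicate 1 (0.363) or replicate 3 (0.154). Leaving out any single control library (0.05 to 0.141) or any single double knockdown library (0.0528 to 0.185) also ended it. Of 10 tested death receptor genes, 2 fell and 2 rose. CFLAR, an inhibitor of caspase-8, fell from 165-178 to 107-134 CPM (log2 fold change -0.51, adjusted p = 0.00521), and its call was lost without replicate 1 (0.077) or replicate 3 (0.224). The death receptor FAS fell from 54.7-60.2 to 36.3-47.6 CPM (log2 fold change -0.48, adjusted p = 0.0236), and TNFRSF10B, a receptor for TRAIL, rose from 95.2-129 to 160-167 CPM (log2 fold change 0.52, adjusted p = 0.0122). None of these ranges overlapped between the double knockdown and control, as for 15.6% of all genes. These genes were named because they were called there. The FAS call was lost without replicate 1 (0.115) or replicate 3 (0.323). Leaving out control or double knockdown replicate 1 or 3 alone also ended it (0.0527 to 0.121). The TNFRSF10B call was lost without replicate 1 (0.0618) or 3 (0.102), control replicate 2, or double knockdown replicate 2 or 3 (0.0543 to 0.073). TNFRSF1A, a TNF receptor gene, was the other gene that rose (log2 fold change 0.37, adjusted p = 0.0424), with the call lost in 14 of 21 alternatives, including the omission of any single control or double knockdown library (0.053 to 0.226). Against HIF2A siRNA, 2 of the 10 rose and 1 fell in the double knockdown, where 4% of all genes were called. TNFSF10, the gene of TRAIL, rose (log2 fold change 0.54, adjusted p = 0.0291), a call lost in 10 of 21 alternatives, among them the omission of any single double knockdown library (0.0728 to 0.201) or of HIF2A siRNA replicate 1 or 2 (0.0668 and 0.0935). TNFRSF10B rose there as well (log2 fold change 0.47, adjusted p = 0.0415), and TRADD, an adaptor of TNF receptors, fell by 0.60 on the log2 scale (adjusted p = 0.0448). Each of these calls was lost in 13 of 21 alternatives. Without any single double knockdown library, any HIF1A siRNA library or HIF2A siRNA replicate 2 or 3, TNFRSF10B stood at 0.0587 to 0.216, and without any single double knockdown or HIF2A siRNA library, HIF1A siRNA replicate 3 or control replicate 3, TRADD stood at 0.0637 to 0.216. Of 16 listed p53 target genes, 2 were called lower and none higher in the double knockdown against control. These counts are near the background of 6.42% lower and 3.86% higher. Of the 16, 10 had a negative log2 fold change, and the list median was -0.22 against 0.00 over all genes. That list is only a part of the p53 targets. It leaves out BBC3, PMAIP1 and BAX, named above as such, and every gene of the death receptor list. BTG2 fell by 0.88 on the log2 scale (adjusted p = 0.00255, or 0.0818 without replicate 1). CDKN1A, the cell cycle inhibitor p21, fell by 0.44 (adjusted p = 0.0236). The CDKN1A call was lost without replicate 1 (0.165) or replicate 3 (0.168). Leaving out control replicate 2 or 3 or double knockdown replicate 1 or 2 also ended it (0.0532 to 0.173). Against HIF2A siRNA the double knockdown was also lower in BTG2 (log2 fold change -0.81, adjusted p = 0.00863). The BTG2 call was lost without replicate 1 (0.068), replicate 3 (0.105) or double knockdown replicate 1 alone (0.0901). APAF1 was lower there too (-0.88, adjusted p = 0.00412, or 0.0888 without replicate 3). Of 13 tested transcription factors that act on family genes, E2F1 rose by 0.44 against control (adjusted p = 0.0196). The E2F1 call was lost without replicate 1 (0.23) or replicate 3 (0.237). Leaving out control or double knockdown replicate 1 or 3 alone also ended it (0.0508 to 0.117).

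BCL2A1 is usually assigned to the NF-kappaB target genes. Of 16 other genes of that group, 7 fell in the double knockdown against control (TRAF1, IL8, TNFAIP3, BIRC3, NFKBIE, ICAM1 and CCL20) and 1 rose (TNFAIP2), where 6.42% of all genes fell and 3.86% rose. Of the 16, 14 had a negative log2 fold change, with a median of -0.25 against 0.00 over all genes. IL8, a chemokine gene, measured 131, 84.0 and 159 CPM with control siRNA, 107, 74.4 and 79.3 with HIF1A siRNA, 125, 67.7 and 96.2 after HIF2A siRNA, and 72.1, 44.6 and 61.1 in the double knockdown. It fell by 1.07 on the log2 scale in the double knockdown against control (adjusted p = 0.00022). TRAF1, an adaptor of TNF receptors, measured 67.2, 50.2 and 161 CPM with control siRNA and 20.9, 24.1 and 71.4 in the double knockdown (log2 fold change -1.29, adjusted p = 0.00054). It was lower in 3 of 3 pairs, although the groups overlapped because replicate 3 was high in both. TNFAIP3, which encodes the NF-kappaB inhibitor A20, measured 147, 90.4 and 150 CPM with control siRNA and 83.4, 54.6 and 90.9 in the double knockdown (log2 fold change -0.75, adjusted p = 0.00152). CCL20, another chemokine gene, had 33, 33 and 20 counts with control siRNA, 14, 11 and 10 with HIF1A siRNA, 13, 7 and 10 after HIF2A siRNA, and 1, 2 and 0 in the double knockdown (adjusted p = 0.00126), too few for a fold change. The calls of IL8, TRAF1 and TNFAIP3 were kept when any replicate number or library was left out. They were lost only without the replicate block (adjusted p = 0.107, 0.381 and 0.226). Every other pathway-list call in the double knockdown against control, CCL20 excepted, was also lost without the block (0.0558 for BIRC3 to 0.778 for CDKN1A). The call of CCL20 held in all 20 alternatives that could test it. Those of the others were less firm, and that of BIRC3 is given above. ICAM1, an adhesion molecule gene (adjusted p = 0.00554), lost the call without replicate 3 (0.175) or control replicate 3 alone (0.056). NFKBIE (0.018) lost it without replicate 1 (0.142) or 3 (0.213), control replicate 3, or double knockdown replicate 1 or 3 (0.0527 to 0.12). TNFAIP2 (0.0181) lost it without replicate 2 (0.0716) or 3 (0.279), or control or double knockdown replicate 2 or 3 (0.0827 to 0.0938).

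With the single siRNAs 0 of the 16 NF-kappaB target genes passed against control, near the background of 1.17% of all genes with HIF1A siRNA and 0.0857% with HIF2A siRNA. Against control, 14 of 16 had a negative log2 fold change with HIF2A siRNA (median -0.30) and 10 of 16 with HIF1A siRNA (median -0.08), both comparisons sharing the control libraries with each other and with the double knockdown. Between the single siRNAs, where 1.5% of all genes were called, 1 of 16 was called, CCL2, which was higher with HIF1A siRNA (log2 difference 1.16, adjusted p = 0.0322), a call lost without HIF1A siRNA replicate 1 or 2, HIF2A siRNA replicate 2 or 3 or control replicate 3 (0.0545 to 0.315). Against HIF1A siRNA the double knockdown was lower in 2 of 16, TNFAIP3 and TRAF1, where 1.4% of all genes were called, and against HIF2A siRNA in 3 of 16, CCL20, IL8 and TRAF1, where 4% were called. Leaving out double knockdown replicate 1 or 2 ended the TRAF1 calls against both single siRNAs (0.0602 to 0.135), the TNFAIP3 call (0.162 and 0.217) and the IL8 call (0.0549 and 0.0752). So did omitting HIF1A siRNA replicate 1 or 2 for TRAF1 against HIF1A siRNA (0.0751 and 0.103), any HIF1A siRNA library for TNFAIP3 (0.0543 to 0.222), and HIF2A siRNA replicate 1 or double knockdown replicate 3 for IL8 (0.0534 and 0.0675). Without replicate 1, adjusted p was 0.188 and 0.137 for TRAF1 against HIF1A and HIF2A siRNA, 0.263 for TNFAIP3 and 0.0936 for IL8. The CCL20 call against HIF2A siRNA stood at adjusted p = 0.0496 and was lost in 17 of 19 alternatives.

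**Figure D4:**
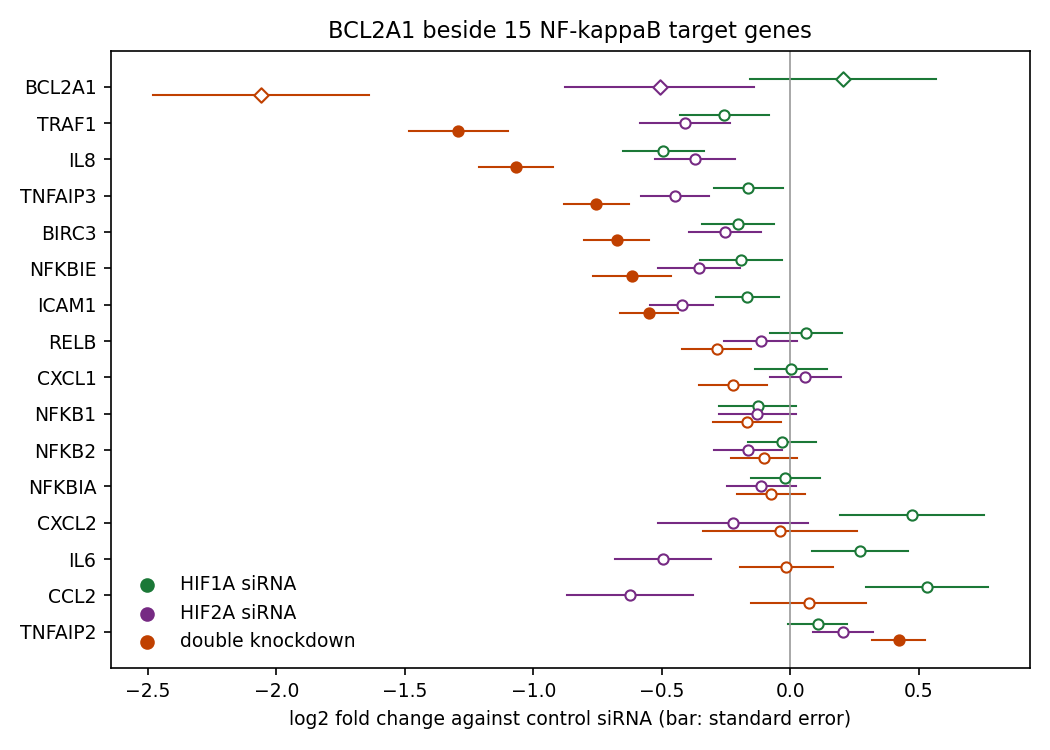
Log2 fold change against control siRNA (x axis, bars give the standard error) of BCL2A1 and 15 NF-kappaB target genes (y axis), without CCL20, which had 0 to 2 counts in the double knockdown. Filled circles passed an adjusted p of 0.05, open circles did not, and BCL2A1 (diamonds) was not tested; TRAF1 and IL8 lie at -1.29 and -1.07 in the double knockdown, and BCL2A1 at -2.06.

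The genes whose pattern was most like that of BCL2A1 were ranked by Pearson's r of log2(CPM + 0.5), relative to the mean of each replicate number, over the 12 libraries and 12999 other genes. The 5 highest were NQO1 (r = 0.953), CHST2 (0.948), APOL1 (0.945), SEMA4B (0.937) and TNFRSF11A (0.930), which share the libraries and their depth with BCL2A1. NQO1, a quinone reductase gene, was also first by Spearman's rho (0.951), whereas the other 4 gave way to DCLRE1B, ERRFI1, LAYN and SGMS1 in that ranking. Likeness of pattern did not mean likeness of size. NQO1 moved only from a mean of 225 CPM with control siRNA to 219 with HIF1A siRNA, 210 with HIF2A siRNA and 183 in the double knockdown. CHST2, a sulfotransferase gene, measured 7.01, 7.03, 4.198 and 2.22 CPM in the same order, and TNFRSF11A, which encodes the receptor RANK, 20.9, 21.2, 14.2 and 9.15 CPM. APOL1 measured 278, 258, 241 and 140 CPM and SEMA4B 95.1, 95.8, 68.5 and 44.9 CPM. The 5 were picked for this likeness over the same libraries, so the order of their condition means follows from the choice. The other 9 family members were less like it, with r between -0.47 for BAK1 and 0.55 for BCL2L1.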

How the data were processed

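PolyA RNA of RCC4 cells was sequenced from directional libraries. According to the study's methods and the submitters' processing notes, the authors trimmed reads with Trim Galore 0.3.3, aligned them to hg19 with HISAT2 2.05, kept uniquely mapped fragments with Picard 2.0.1 and counted them per UCSC gene with HTSeq 0.5.4p3 (intersection-strict). The deposited counts are raw. Overlapping genes may exchange or lose fragments in such counts. From the counts, CPM was computed on TMM-scaled totals. The quasi-likelihood test of edgeR 4.0.16 (R 4.3.3) was run with edgeR's expression filter (minimum count 10, minimum total 15), a block for the replicate number and p-values adjusted by Benjamini-Hochberg over all genes tested, with a threshold of 0.05. All 9 libraries without the double knockdown were fitted together (12830 genes), and all 12 for the double knockdown and the interaction (13000 genes); all 10 members passed the filter in both. The pairing follows the study's methods. After each condition's mean was removed, same-numbered libraries correlated at 0.0991 to 0.813 (18 pairs). Libraries of different numbers correlated at -0.724 to 0.527 (36 pairs). The ranges overlapped, and removing the condition means ties both sets to each other, so they are no test of the pairing. The methods call the replicates biological without saying what separates them, so p-values measure only the spread between these samples. No 2 replicates agreed within sampling noise, so none was merged. Members, lists and tests were chosen with earlier results of these data known. Named genes were all members, up to 4 called genes per list by adjusted p, HIF1A and EPAS1, and the 5 genes most like BCL2A1; other names were added after their values were seen. DESeq2 1.42.0 was an alternative, and scripts were tested on simulated data. The study's single-cell data are not analysed here.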

Additional observations from a re-analysis of the deposited data

How the results depend on the processing

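BCL2A1 kept its direction in the double knockdown against control in all 20 alternatives that could fit it (log2 fold change -2.46 without replicate 1 to -1.79 without replicate 3), and in the double knockdown against HIF1A siRNA (-2.65 to -1.99) and HIF2A siRNA (-2.08 to -1.24), with HIF2A siRNA (-0.76 to -0.30), between the single siRNAs (0.43 to 1.10) and in the interaction (-2.15 to -1.39). With HIF1A siRNA it ranged from -0.02 to 0.55. A minimum of 10 counts in every library removed BCL2A1 from the fit of 12 libraries. CPM on plain totals moved no member by more than 2.02%. Of 1233 fits of the other members under alternatives, 5 passed (BCL2 and BAK1, double knockdown) and 131 changed sign, none of them a called value. The members called in the double knockdown against control were 1 with DESeq2, 2 with only the 6 compared libraries, and 0 to 2 with a replicate or library left out.

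The numbers of genes called, over all genes, moved more. Without the replicate block they were 41 for HIF1A siRNA, 1 for HIF2A siRNA, 52 between the single siRNAs, 195 for the double knockdown against control, 8 against HIF1A siRNA and 90 against HIF2A siRNA. DESeq2 called 236, 58 and 329 genes in the first 3 comparisons, 403 and 818 for the double knockdown against HIF1A and HIF2A siRNA, and 11 in the interaction. Without a filter 41 genes were called for HIF2A siRNA, 291 between the single siRNAs and 4 in the interaction, and with all 12 libraries 26 for HIF2A siRNA. With only the 6 compared libraries the double knockdown had 2609, 656 and 164 calls against control, HIF1A and HIF2A siRNA. Leaving out a replicate number or library gave 66 to 219 calls for HIF1A siRNA, 1 to 33 for HIF2A siRNA, 90 to 351 between them, 302 to 2307, 26 to 442 and 158 to 672 for the double knockdown against control, HIF1A and HIF2A siRNA, and 0 to 3 for the interaction. The cause was not tested. BCL2A1 had 6 to 78 counts per library, which limits its precision.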
